A study of Mus musculus with 2 samples.

Results

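The genes described here were 7 cytokine genes of the type 1 and lymphotoxin group: Ifng, Tnf, Lta, Ltb, Il2, Csf2 and Spp1. They were chosen by name, as the rows of the count matrices that carry these symbols, and all 7 were found among 32285 genes. Their RNA was counted in single CD8 T cells sorted as CD45+ TCRB+ CD8a+ live cells from the fourth mammary fat pad of untreated C57BL/6 mice. One group was multiparous mice (called parous below) and the other was virgin mice. Ages are not given in the sources used here, and both groups shared strain, tissue, sort and kit. Each group was 1 library, pooled from 5 or more mice. With 1 library per group nothing measures the spread between mice, and no test was made. Intervals in brackets are exact 95% intervals that cover counting error alone and leave out variation among mice and sorts. Those for levels and ratios treat every counted RNA molecule as independent, so they are too narrow where a few cells hold many molecules of a gene.

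These genes encode messengers that T cells release or display after their receptor is engaged. Ifng encodes interferon-gamma, which raises antigen presentation in target cells and arms macrophages. Tnf, Lta and Ltb form 1 family: tumour necrosis factor and lymphotoxin alpha act as soluble trimers, and lymphotoxin beta anchors lymphotoxin alpha at the cell surface, where the complex engages a receptor that shapes lymphoid tissue. Il2 encodes the T cell growth factor interleukin-2, Csf2 encodes the myeloid growth factor GM-CSF, and Spp1 encodes osteopontin, a secreted phosphoprotein made by activated T cells, macrophages and secretory epithelium. Transcription of several of them is known to be switched on by NFAT, AP-1 and NF-kB after receptor engagement.

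Ltb, Tnf and Lta are neighbours in the class III region of the major histocompatibility complex. On the GRCm38 assembly (the GENCODE M21 annotation), Ltb lay at chr17:35194439-35196320 on the plus strand, Tnf at chr17:35199381-35202007 and Lta at chr17:35203165-35205351, both on the minus strand. The gap from Ltb to Tnf was 3060 bases and that from Tnf to Lta 1157 bases. Ifng lay at chr10:118441046-118445892, Il2 at chr3:37120523-37125959, Csf2 at chr11:54247271-54249667 and Spp1 at chr5:104435118-104441050. In these matrices Il2 overlapped Adad1, which had 15 UMIs, and Csf2 overlapped Gm12223, which had 0 UMIs. A UMI, or unique molecular identifier, stands for 1 captured RNA molecule.

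The stretches before the starts of Ifng, Tnf, Ltb and Il2 are shown because the levels of these members are given by T cell state in most detail. The sequences are from RefSeq on GRCm38.p6, reach 250 bases before the RefSeq start and stop at the annotated gene, so that the Ltb stretch has 182 bases and the Il2 stretch 245. Each is written along the gene's own strand, 5′ to 3′. Capitals mark matches, on either strand, to the core letters of NFAT (GGAAA), NF-kB (GGG, any 5 bases, CC) and the TATA box (TATAAA).
Ifng (chr10:118440796-118441045, plus strand): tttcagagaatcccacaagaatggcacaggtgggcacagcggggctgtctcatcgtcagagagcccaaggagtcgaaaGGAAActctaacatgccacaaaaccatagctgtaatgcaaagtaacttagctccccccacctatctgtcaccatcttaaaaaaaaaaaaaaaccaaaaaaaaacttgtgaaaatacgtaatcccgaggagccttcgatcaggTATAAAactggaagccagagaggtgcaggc
Tnf (chr17:35202008-35202257, minus strand): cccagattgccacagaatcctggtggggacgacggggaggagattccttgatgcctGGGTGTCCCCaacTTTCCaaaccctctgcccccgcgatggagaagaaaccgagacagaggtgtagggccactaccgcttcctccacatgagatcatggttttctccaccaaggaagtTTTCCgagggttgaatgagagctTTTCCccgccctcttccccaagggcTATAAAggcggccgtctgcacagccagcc
Ltb (chr17:35194257-35194438, plus strand): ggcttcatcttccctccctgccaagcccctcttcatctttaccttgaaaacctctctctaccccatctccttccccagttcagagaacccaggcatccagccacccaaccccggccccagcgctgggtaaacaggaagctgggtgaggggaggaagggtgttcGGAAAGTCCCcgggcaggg
Il2 (chr3:37125960-37126204, minus strand): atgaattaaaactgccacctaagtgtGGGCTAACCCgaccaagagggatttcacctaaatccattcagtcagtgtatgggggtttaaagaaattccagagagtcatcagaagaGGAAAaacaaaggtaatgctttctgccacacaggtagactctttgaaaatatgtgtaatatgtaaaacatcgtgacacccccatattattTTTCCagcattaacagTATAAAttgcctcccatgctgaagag
Over the full 250 bases, the NFAT letters occurred before all 7 genes, and in 55.6% of 32851 RefSeq promoters of the same length. The NF-kB letters occurred before Tnf, Lta, Ltb and Il2, and in 45.8% of all promoters. In Ltb the NFAT match at 87 to 83 bases before the start lies within the NF-kB match GGAAAGTCCC. The TATA letters stood 30 to 25 bases before the start of Ifng, 29 to 24 before Tnf and 31 to 26 before Il2. They stood further off before Lta, at 167 to 162 bases, and before 1 of the 2 Spp1 starts, at 211 to 206. None were found before Ltb or Csf2, and 12.4% of all promoters held them anywhere in the 250 bases. The letters TGANTCA (AP-1) and GTGTGA (T-box) were found before none of the 7 genes, against 6.75% and 12.3% of all promoters. All positions are counted from the RefSeq starts. For Ltb and Il2 these starts lie inside the GENCODE gene, so 68 and 5 of the 250 bases fell within it and are not printed. For Csf2 and Spp1 the RefSeq start also differs from the GENCODE gene start, and Spp1 has 2 RefSeq stretches, so their stretches are not printed. These are matches of letters in a short window and say nothing of whether a factor binds there.

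The parous library had 4927 barcodes and 14676415 UMIs, and the virgin library 2526 barcodes and 20166425 UMIs. A filter on genes, UMIs and mitochondrial share kept 3019 parous cells with a median of 4108 UMIs and 2511 virgin cells with a median of 7001. The filter left out 1908 parous and 15 virgin barcodes. The libraries shared 18 barcode sequences, 14 of them among kept cells. After removing 1 cluster of other cells (28 parous and 9 virgin), 2991 parous and 2502 virgin CD8 T cells were compared. Because the virgin cells were deeper, shares of cells with a UMI were taken after thinning every cell to 1400 UMIs, which 2866 parous and 2488 virgin cells reached. Cells were clustered without the 7 genes. Cd3e was detected in 71.2% to 99.2% of cells of each CD8 T cell cluster, whereas Cd8b1 was detected in 64.2% of cluster 3 and 22.3% of cluster 6. Cluster 4 (358 parous and 22 virgin cells) and cluster 6 (309 and 1) came almost wholly from the parous library. The naive or central memory-like cluster 0 made up 16.2% of the parous cells and 39.4% of the virgin cells, and this difference in make-up stands beside every comparison over all cells.

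Over all CD8 T cells, every member had the lower level in the parous library, but for most of them the difference was small. Levels are counts scaled to 1000000 UMIs of the CD8 T cells (CPM), and ratios are parous over virgin. None of the 7 was at least 1.5-fold higher in the parous library, where 8.61% of all 13917 genes with at least 10 UMIs were. Csf2 and Spp1 were at least 1.5-fold lower, where 17.4% of all genes were. The counting interval of the ratio lay wholly below 1 for 6 members, against 32.5% of all genes and 41.2% of the genes with at least 1000 UMIs, and it spanned 1 for Il2. It lay above 1 for none of the members, against 14.5% of all genes and 26.2% of those with at least 1000 UMIs. The median log2 ratio was -0.33 over the members and -0.15 over all genes. A median-of-ratios scaling gave 0.914 as the ratio of a typical gene, so ratios near that value are those of the library as a whole.

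**Figure D1:**
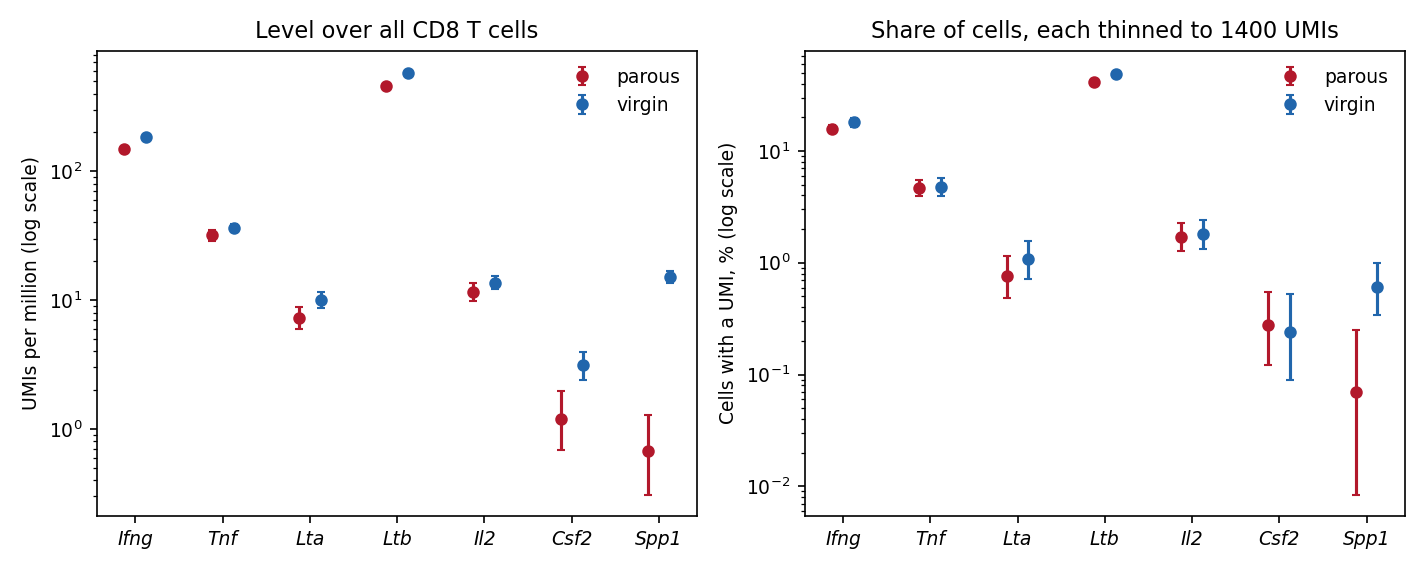
Level of each of the 7 genes in CPM (left, log axis) and share of cells with at least 1 UMI after thinning to 1400 UMIs (right, log axis), parous in red and virgin in blue. Points are single libraries and bars are exact 95% counting intervals. The pairs of points lie close together for Ifng, Tnf, Lta, Ltb and Il2 and far apart for Spp1.

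Ifng had 1976 UMIs in the parous and 3665 in the virgin CD8 T cells, a level of 149 CPM (142 to 156) and 184 CPM (178 to 190). The ratio was 0.810 (0.766 to 0.856). At 1400 UMIs, 15.8% of parous and 18.0% of virgin cells had an Ifng UMI, and these intervals (14.4% to 17.2% and 16.5% to 19.5%) overlapped. Many cells contributed: 186 parous and 168 virgin cells held 50% of the Ifng UMIs, and the 5 cells with most held 3.54% and 5.35%. From 10 to 49 Ifng UMIs were found in each of 14 parous and 75 virgin cells, in libraries that differed in depth. Without thinning, 29.99% of parous and 38.5% of virgin cells had an Ifng UMI.

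Ifng differed far more between states than between libraries. In the naive or central memory-like cells Ifng was at 3.97 CPM in parous and 2.87 CPM in virgin cells, and 0.418% and 0.406% of cells had a UMI at 1400 UMIs. These shares, in cells with unthinned medians of 4545 and 7399 UMIs, serve as a low reference share. Free RNA was not measured and cannot be told apart here from low expression in these cells. Cluster 2, unnamed and led by the chemokine genes Ccl3 and Ccl4, had 485 CPM (435 to 539) and 439 CPM (412 to 468), with a UMI in 41.1% and 40.3% of cells. The tissue-resident memory-like cluster 7, led by Mmp9, Cd40lg, P2rx7 and Zfp683, had 335 CPM (284 to 392) and 450 CPM (403 to 502). The circulating effector-like cluster 8, with Klrg1, Cx3cr1 and S1pr5, had 211 CPM (157 to 277) and 454 CPM (417 to 494). The neighbouring virgin levels of clusters 8, 7 and 2 did not differ beyond their counting intervals, whereas in the parous library cluster 2 lay above the other clusters. That parous level depended on how the cells were clustered: the cluster that held most of these cells had 213 CPM at Leiden resolution 0.5, 385 CPM when the 7 members were clustered with the rest and 405 CPM at resolution 1.2.

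The second tissue-resident memory-like cluster, cluster 5 with Itgae, Car2 and Cdh1, had a lower Ifng level than cluster 7, at 216 CPM (193 to 241) in the parous library and 291 CPM (218 to 380) in 29 virgin cells. The parous-dominated cluster 6, led by Fcer1g and Tyrobp, had 102 CPM (85.4 to 121). The Ly49 and Helios-like cluster 3 had 62.5 CPM (52.2 to 74.1) in parous and 134 CPM (119 to 151) in virgin cells. In that cluster the share of cells with an Ifng UMI was 8.68% in parous and 6.67% in virgin cells, which goes the other way, and 1 virgin cell held 68 of the 279 virgin UMIs. Without the cell with most Ifng UMIs in each library the levels were 58.9 and 103 CPM.

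Outside the naive or central memory-like cells the libraries lay further apart in Ifng. There the level was 179 CPM in parous and 289 CPM in virgin cells, a virgin level 1.62-fold higher (1.53 to 1.71), and 18.8% (17.3% to 20.5%) of parous and 29.5% (27.2% to 31.9%) of virgin cells had a UMI. The mix of states differed: cluster 3 made up 11.2% of parous and 7.79% of virgin cells, and cluster 6 made up 10.3% and 0.0400%. With each state given the same weight in both libraries, the log2 ratio over the states with at least 20 cells in each library was -0.28. Of 11 states with at least 20 cells in each library, 8 had the lower Ifng level in the parous library, 5 of them with the interval below 1. In clusters 3 and 8 the ratio was 0.467 (0.376 to 0.576) and 0.464 (0.341 to 0.618), with 15.9% and 6.05% of all genes in those clusters having an interval below 1. In cluster 2 the ratio was 1.11 (0.974 to 1.25).

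**Figure D2:**
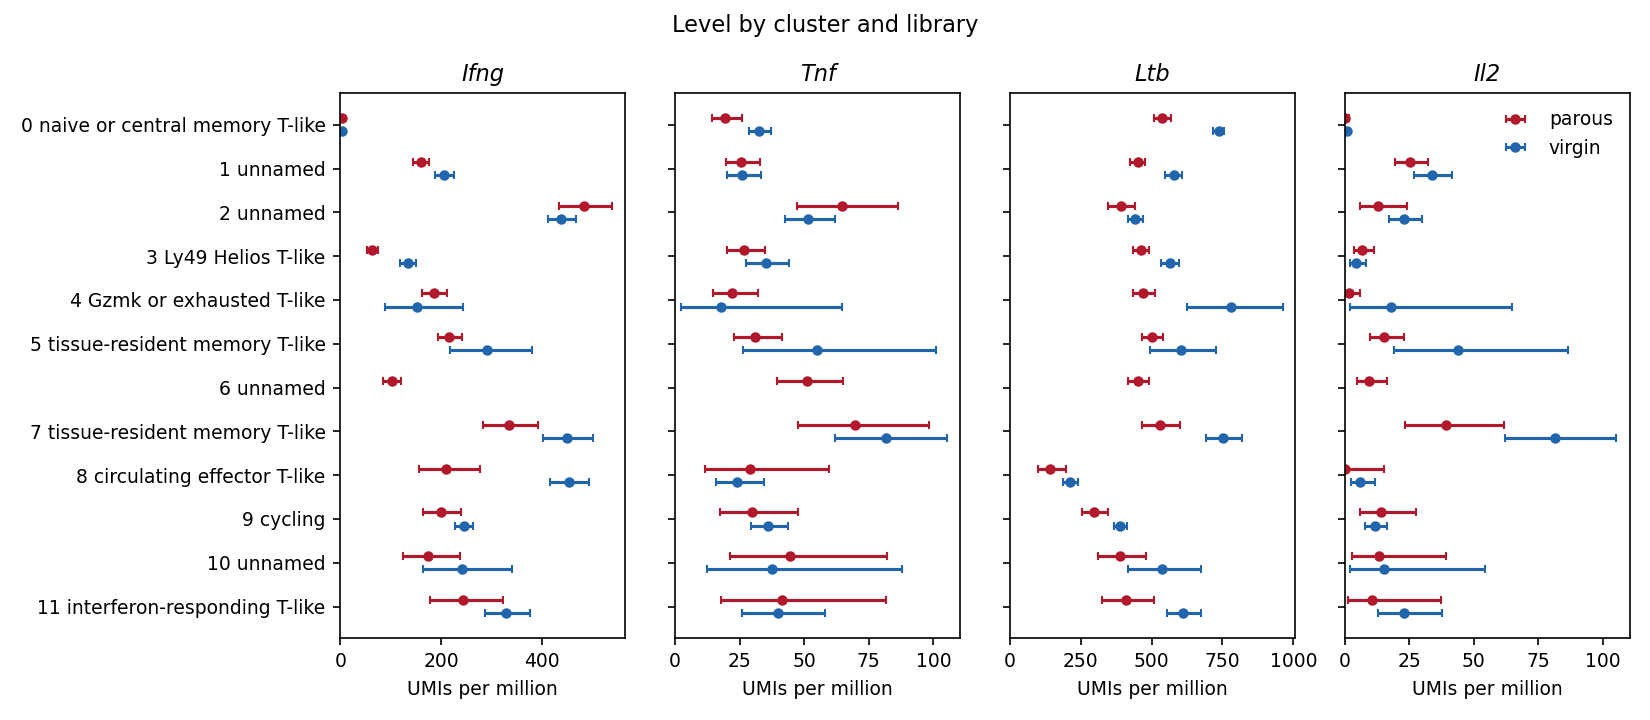
Level in CPM of Ifng, Tnf, Ltb and Il2 (panels) in each cluster of CD8 T cells (rows), parous in red and virgin in blue, with exact 95% counting intervals. Clusters with under 20 cells in a library have no point. Ifng and Il2 are near 0 in cluster 0, where Ltb is high, and Ltb is lowest in cluster 8.

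Tnf differed little between libraries. It had 423 parous and 722 virgin UMIs, or 31.9 CPM (28.9 to 35.04) and 36.2 CPM (33.6 to 38.9), a ratio of 0.880 (0.779 to 0.994) that includes the 0.914 of a typical gene. At 1400 UMIs, 4.68% of parous and 4.78% of virgin cells had a UMI, and without thinning 11.5% and 18.1%. Tnf RNA was spread over the states, naive-like cells included. The naive or central memory-like cells had 19.4 CPM (14.1 to 26.1) in parous and 32.6 CPM (28.6 to 37.0) in virgin cells, a ratio of 0.595 (0.421 to 0.824), where 16.5% of that cluster's genes had an interval below 1. Of the 11 states this was the only 1 whose Tnf interval lay below the state's typical ratio. Cluster 7 had 69.5 CPM (47.6 to 98.1) and 81.5 CPM (62.1 to 105), and cluster 2 had 64.7 CPM (47.3 to 86.2) and 51.6 CPM (42.5 to 62.0). These clusters also had high Ifng. Their Tnf intervals overlapped in the parous library, whereas in the virgin library the interval of cluster 7 lay just above that of cluster 2.

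Ltb was found in a large share of cells of both libraries and was lower in the parous library in state after state. It had 6118 parous UMIs, 461 CPM (449 to 472), and 11551 virgin UMIs, 579 CPM (569 to 590), a ratio of 0.795 (0.771 to 0.821). At 1400 UMIs, 41.7% (39.9% to 43.5%) of parous and 48.9% (46.9% to 50.9%) of virgin cells had a UMI, and without thinning 69.8% and 84.2%. Naive or central memory-like cells had 536 CPM (507 to 567) in parous and 737 CPM (717 to 757) in virgin cells. In cluster 7 it was 530 CPM (466 to 601) and 753 CPM (691 to 819). The lowest level was in the circulating effector-like cluster 8, at 140 CPM (97.2 to 196) and 213 CPM (188 to 241), followed by the cycling cluster 9, at 296 CPM (253 to 344) and 390 CPM (367 to 413).

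The parous Ltb level was the lower one in 11 of 11 states, with the interval below 1 in 8 of them. Of 1296 genes with at least 10 UMIs in every state and library, 6.17% were lower in all 11 states, and 6.17% had 8 or more such intervals. Set against the typical gene of each state, Ltb again lay below in 11 of 11 states, with the interval below the state's typical ratio in 8. The smallest ratio was 0.604 (0.481 to 0.765) in cluster 4, which had only 22 virgin cells, and the largest 0.887 (0.773 to 1.01) in cluster 2. No cluster lacked Ltb, so no low reference share could be set for it. The ratio over all cells was nearer to 1 outside the naive or central memory-like cells, where the levels were 445 and 487 CPM.

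**Figure D3:**
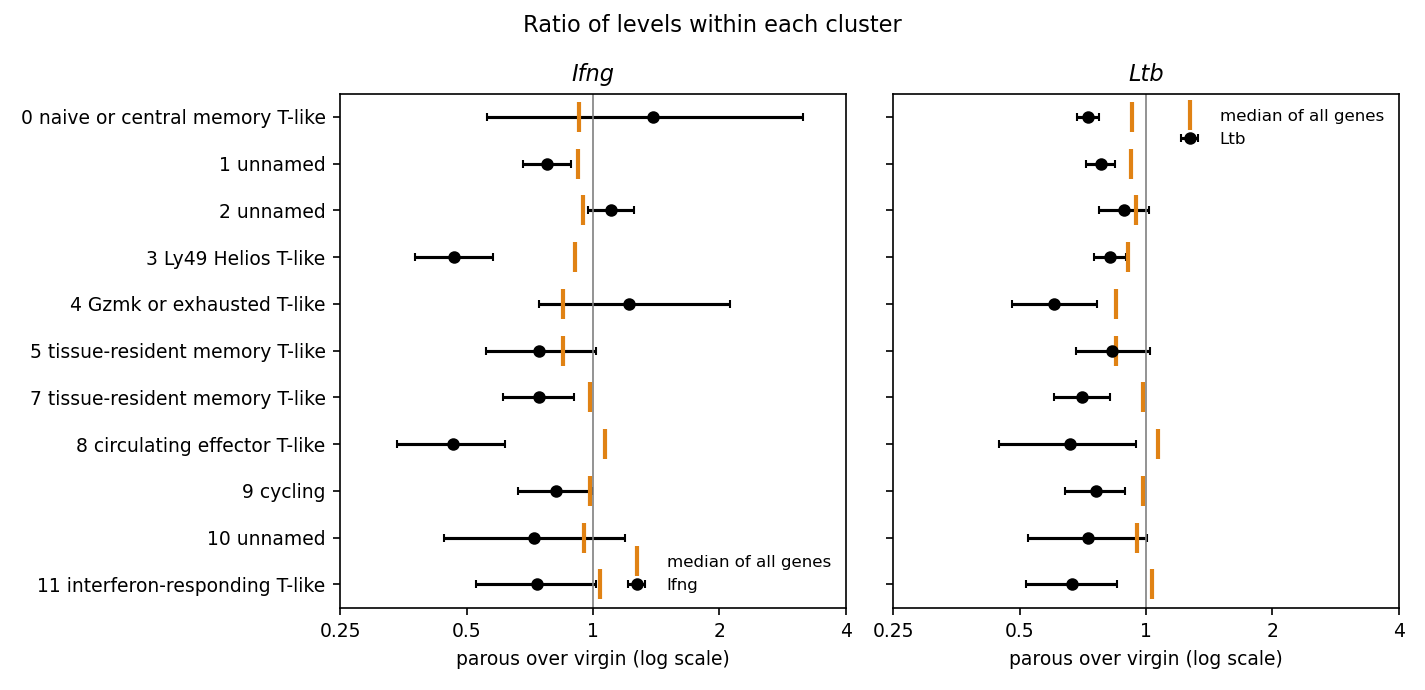
Ratio of the level in parous over virgin cells (log axis) within each of 11 clusters for Ifng (left) and Ltb (right), with exact 95% counting intervals. Orange ticks mark the median ratio of that cluster's genes with 10 or more UMIs per library, and the grey line marks 1. All 11 Ltb points lie left of 1, and the Ifng points for clusters 3 and 8 lie furthest left.

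Lta, the partner of Ltb in the membrane complex, was rare. It had 97 UMIs in 75 parous cells and 200 UMIs in 131 virgin cells, 7.30 CPM (5.92 to 8.91) and 10.0 CPM (8.69 to 11.5). Its ratio was 0.728 (0.566 to 0.933), an interval that includes the 0.914 of a typical gene. At 1400 UMIs, 0.768% of parous and 1.09% of virgin cells had a UMI, with overlapping intervals, and without thinning 2.51% and 5.24%. The naive or central memory-like cells held 28.9% of the parous and 41.0% of the virgin Lta UMIs, at 12.4 and 11.2 CPM. One virgin cell of cluster 3 held 25 of the 200 virgin UMIs, and the ratio furthest from 1, in that cluster, came from 5.25 against 20.2 CPM with this cell and 3.83 against 8.30 CPM without the top cell of each library.

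Il2 was found in few cells, and among the states the tissue-resident memory-like cluster 7 had the highest level, though not beyond counting error against every other state. It had 154 UMIs in 119 parous cells and 273 UMIs in 187 virgin cells, 11.6 CPM (9.84 to 13.6) and 13.7 CPM (12.1 to 15.4), a ratio of 0.847 (0.691 to 1.04). At 1400 UMIs, 1.71% of parous and 1.81% of virgin cells had a UMI, and without thinning 3.98% and 7.47%. The naive or central memory-like cells had 0 parous and 5 virgin UMIs, and 0 of 479 parous cells had a UMI at 1400 UMIs, which by the limit of 3 counts allows a share of up to 0.626%. Cluster 7 had the highest level, 39.1 CPM (23.2 to 61.8) in parous and 81.5 CPM (62.1 to 105) in virgin cells, a ratio of 0.480 (0.266 to 0.825), where 10.2% of that cluster's genes had an interval below 1. Its parous interval overlapped those of several states, cluster 1 among them. Its virgin interval overlapped those of clusters 4 and 5, which had few virgin cells. The second tissue-resident memory-like cluster, cluster 5, had 43.9 CPM (18.9 to 86.4) in virgin cells. Cluster 1, unnamed and led by Gzmm and Ccr2, held most Il2 UMIs, 40.9% of the parous and 30.4% of the virgin ones, at 25.2 CPM (19.4 to 32.2) and 33.6 CPM (26.8 to 41.7). The parous-dominated cluster 4, led by Pdcd1 and Gzmk, had 2 UMIs in 358 parous cells, a level of 1.63 CPM (0.198 to 5.90). Outside the naive or central memory-like cells, Il2 was at 13.98 CPM in parous and 21.3 CPM in virgin cells, 1.52-fold higher in the latter (1.24 to 1.87).

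Csf2 was close to the limit of detection. It had 16 UMIs in 16 parous cells and 62 UMIs in 29 virgin cells, 1.21 CPM (0.689 to 1.96) and 3.11 CPM (2.38 to 3.98), so that the virgin level was 2.58-fold higher (1.47 to 4.79). The virgin UMIs were concentrated: 1 cell held 12, and 4 cells held 50% of them. At 1400 UMIs the shares were 0.279% of parous and 0.241% of virgin cells, 8 and 6 cells, with overlapping intervals. Without thinning they were 0.535% and 1.16%, so no order is read from the shares. Cluster 7 held more Csf2 UMIs than any other, 5 parous and 21 virgin, and the virgin count there was 9 without its top cell. No Csf2 UMI was found in the naive or central memory-like cells of either library.

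Spp1 was the member with the largest difference, and it rested on a small set of dividing virgin cells. It had 9 UMIs in 6 parous cells and 302 UMIs in 30 virgin cells, 0.678 CPM (0.310 to 1.29) and 15.1 CPM (13.5 to 16.95), a 22.3-fold higher virgin level (11.6 to 49.3). The cycling cluster 9 held 283 of the 302 virgin UMIs, in 24 of 149 cells, and 4 of the 9 parous UMIs, in 1 of 64 cells. One virgin cell held 112 UMIs and 3 cells held 50%. Without the cell with most Spp1 UMIs in each library, cluster 9 still had 171 virgin and 0 parous UMIs. At 1400 UMIs, 0.0698% (0.00845% to 0.252%) of parous and 0.603% (0.338% to 0.992%) of virgin cells had a Spp1 UMI, and without thinning 0.201% and 1.199%. These thinned shares come from 1 draw of 2 and 15 cells, and the shares averaged over all possible draws were 0.138% and 0.433%, which moves the ratio of shares from 0.116 to 0.319. Outside the cycling cells the log2 ratio was -1.40, from 5 parous and 19 virgin UMIs. Median depth of the cycling cells was 8339 UMIs in parous and 17779 in virgin cells. With every cell at 1400 UMIs, 13 of 148 virgin cycling cells (8.78%, 4.76% to 14.6%) and 0 of 64 parous cycling cells (upper limit 5.60%) had a Spp1 UMI, and these intervals overlapped.

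**Figure D4:**
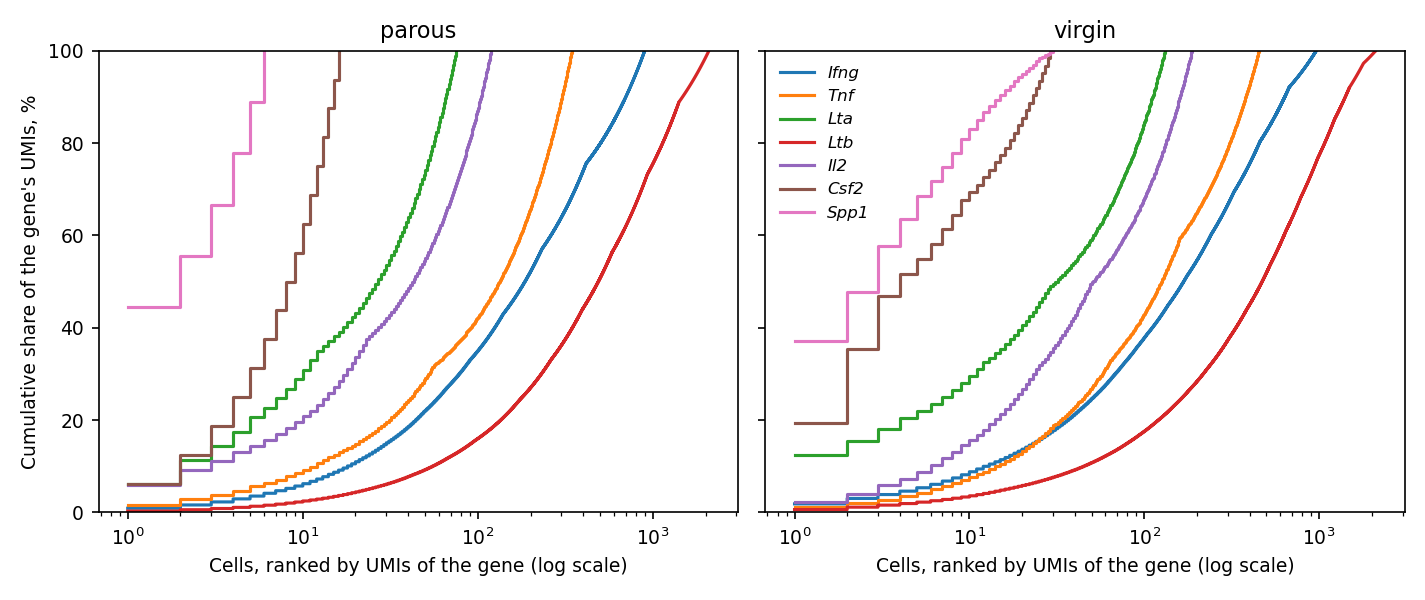
Cumulative share of each gene's UMIs (percent) over its cells ranked from most to fewest UMIs (log axis), for the parous (left) and virgin (right) CD8 T cells. The Ltb and Ifng curves rise slowly over many cells, while the virgin Spp1 and Csf2 curves pass 50% within 3 and 4 cells.

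The members also differed in which of them shared cells. At 1400 UMIs, Tnf was found in 8.19% (5.83% to 11.1%) of parous cells with an Ifng UMI and in 4.02% (3.27% to 4.88%) of those without. In the virgin library the shares were 7.83% (5.51% to 10.7%) and 4.12% (3.30% to 5.07%). Tnf was thus found more often in cells with Ifng in both libraries, with intervals that did not overlap. Ltb went the other way in the parous library, with 35.6% (31.2% to 40.2%) of cells with Ifng and 42.8% (40.8% to 44.8%) of those without. In the virgin library 45.2% (40.5% to 49.9%) and 49.7% (47.5% to 51.9%) overlapped. Without thinning the parous Ltb shares overlapped, at 68.5% (65.3% to 71.5%) and 70.3% (68.3% to 72.3%). The virgin ones then did not, at 77.1% (74.3% to 79.7%) and 88.7% (87.0% to 90.2%). Within single states all Ltb intervals overlapped at 1400 UMIs, so no order is read there. In the virgin clusters 2, 7, 8, 9 and 11 the Ltb share was the higher one in cells with Ifng. It was 46.3% and 35.8% in cluster 2 and 45.7% and 31.9% in cluster 9. Only the virgin cluster 1 went the other way, at 44.8% and 45.5%. Among the parous states the share was higher with Ifng in cluster 4 alone, at 42.6% and 40.1%. Il2 was found in 3.803% (2.23% to 6.02%) of virgin cells with Ifng and 1.37% (0.914% to 1.98%) of those without, and in 2.21% (1.07% to 4.03%) and 1.62% (1.15% to 2.20%) in the parous library.

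Cells without Ifng include most naive-like cells, so the pair of Ifng and Tnf was also taken within single states. In the parous cluster 2, 14.8% (7.90% to 24.5%) of cells with Ifng and 6.90% (3.02% to 13.1%) of those without had Tnf, and in the virgin cluster 2 the shares were 9.88% (5.75% to 15.5%) and 4.58% (2.31% to 8.05%). In the virgin cluster 7 they were 17.8% (8.002% to 32.0%) and 2.78% (0.338% to 9.68%). The shares lay closer together in the parous cluster 4, at 3.28% and 3.06%, and in the parous cluster 7, at 12.8% and 10.5%. In the virgin cluster 8 they went the other way, at 1.89% and 2.54%. The other states with at least 20 cells with Ifng had the higher Tnf share in those cells. In all of these states the intervals overlapped.

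**Figure D5:**
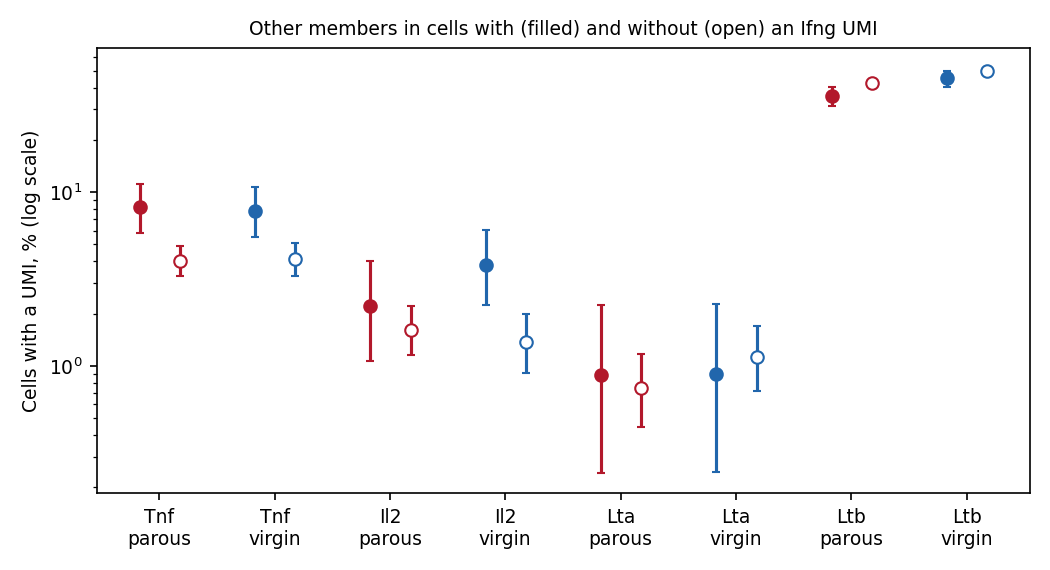
Share of cells with a UMI of Tnf, Il2, Lta or Ltb (percent, log axis) among cells with (filled) and without (open) an Ifng UMI, each cell thinned to 1400 UMIs, parous in red and virgin in blue, with exact 95% intervals. The filled Tnf points lie above the open ones in both libraries, and the parous filled Ltb point lies below the open one.

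Genes whose level followed a member across states were sought over 23 sums of cells, 1 per state and library with at least 20 cells. These points share libraries and differ in depth, so the correlations only describe. Ifng was most like S100a6 (Pearson r = 0.93), S100a4 (0.92), which both encode calcium-binding proteins, and Tbx21 (0.92), which encodes the transcription factor T-bet. Tnf was most like Nfkbid (0.80), a nuclear regulator of NF-kB, and Gadd45b (0.75), and Il2 was most like Tmem154 (0.87). Ltb was most like Xrcc4 (0.77) and Ikbkb (0.76), a kinase of the NF-kB pathway.

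Among single cells at 1400 UMIs, the chemokine gene Ccl3 was found in 11.1% of parous cells with Ifng and 4.64% of those without. In the virgin library P2rx7, a receptor for extracellular ATP, was found in 6.26% and 1.71%, and Prdm1, which encodes the transcriptional repressor Blimp-1, in 5.59% and 1.76%. These were among the 5 genes with the largest ratio of shares in that library, so the values describe the choice. Ccl3 ranked 2 in the parous library, and P2rx7 and Prdm1 ranked 1 and 3 in the virgin library. The other genes of each 5 are not named, and none was among the 5 in both libraries.

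Lists of related genes were measured in the same cells, and each count of list genes stands beside the 8.61% of all genes that were at least 1.5-fold higher and the 17.4% that were lower by as much. Of 15 genes for the receptors of these cytokines with at least 10 UMIs, 1 was higher by at least 1.5-fold in parous cells and 4 were lower by as much. Ifngr2, the signalling chain of the interferon-gamma receptor, was lower, at 20.1 CPM in parous and 38.4 CPM in virgin cells, a ratio of 0.524 (0.454 to 0.603). Its partner Ifngr1 was at 678 and 466 CPM, a ratio of 1.46 (1.41 to 1.498), under the 1.5-fold threshold. Tnfrsf1b, the second receptor for tumour necrosis factor, was higher, at 131 and 82.9 CPM. Il2ra, the high-affinity chain of the interleukin-2 receptor, was lower, at 4.22 and 7.27 CPM. Ifngr2 was a leading gene of the naive or central memory-like cluster, whose share differed between libraries.

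Of 23 measured targets of interferon-gamma, 9 were at least 1.5-fold lower in parous cells and 2 were higher, with a median log2 ratio of -0.47 beside the -0.15 of all genes. The interferon-induced GTPases Iigp1, at 4.59 and 12.0 CPM, Tgtp2, at 19.6 and 46.3 CPM, and Gbp6, at 25.4 and 48.2 CPM, were lower. Of the 2 higher targets, 1 was Socs1, at 324 CPM in parous and 200 CPM in virgin cells. The immunoproteasome genes Psmb8 (0.944) and Psmb9 (0.867) had ratios near that of a typical gene. Many of these targets also respond to type I interferon, and the interferon-responding-like cluster held 1.54% of parous and 3.48% of virgin cells. Its part in the difference was not tested.

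Among 32 inducing transcription factors, 4 were higher and 4 lower in the parous library. Fosl2, an AP-1 subunit, was higher, at 172 CPM in parous and 55.4 CPM in virgin cells, and so was Nr4a2, an orphan receptor induced by T cell receptor signals, at 600.0 and 299.9 CPM. Fos, another AP-1 subunit, was lower, at 665 and 1216 CPM. Markers of recent activation had 1 of 8 genes higher and 0 lower.

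Of 16 genes of cytokine mRNA decay and feedback, 3 were higher and 1 was lower. Cish and Socs1, suppressors of cytokine signalling, had ratios of 1.84 (1.70 to 1.98) and 1.62 (1.55 to 1.69), and Dusp5, a phosphatase of ERK, 1.58 (1.53 to 1.62). Zc3h12d, a regulator of mRNA decay, was lower, at 8.13 and 18.5 CPM.

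Of 16 genes that are secreted or induced with cytokines on activation, membrane proteins such as Tnfrsf9 and Cd69 included, 6 were higher and 3 lower in parous cells, and the median log2 ratio was 0.28 beside the -0.15 of all genes. Xcl1, a chemokine for cross-presenting dendritic cells, was at 691 CPM in parous and 201 CPM in virgin cells, and Gzma, a granzyme, at 1609 and 585 CPM. Gzmc had 428 parous and 25 virgin UMIs. Ccl1 had 9 parous and 501 virgin UMIs. Of 11 other TNF family ligands, 2 were higher and 1 lower, with Tnfsf11, which encodes RANKL, at 9.04 and 5.27 CPM. Of 9 other T cell cytokines, 2 were higher and 2 lower, with Areg, the growth factor amphiregulin, at 8.89 and 1.10 CPM. Areg was also a leading gene of the cluster of other cells with Krt18 and Csn3, which was left out, and the mammary epithelial markers summed to 13.9 CPM in parous and 4.91 CPM in virgin CD8 T cells. Most of that sum was Epcam, at 12.4 and 4.56 CPM, while Krt5, Krt8 and Krt14 were at 0 in both libraries. The casein genes Csn1s1, Csn2 and Csn3 had 7, 1 and 5 parous UMIs and 0 virgin UMIs. Their part in the Areg difference was not tested.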

How the data were processed

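Both libraries were 5-prime single-cell libraries, and the deposited values were UMI counts, not normalized, from Cell Ranger 7.0.0 on mm10 per the submitters' processing notes, which also name R 4.4.2 and Seurat. The cell calling and strand settings are not given in the sources used here. Kept cells had 500 or more genes, 1000 or more UMIs and less than 10% of UMIs from mitochondrial genes. Scrublet (expected rate 0.06) marked 2 parous and 11 virgin cells, under 0.5%, so its calls were not relied on and no cell was removed as a doublet.

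Virgin UMIs were thinned to 58.7% for clustering, which used 2000 variable genes without the 7 members, 30 principal components, 15 neighbours and Leiden clustering at resolution 0.8 (scanpy 1.11.5, leidenalg 0.10.2). A cluster was named from at least 3 markers that were 2-fold above the other cells and in at least 10% of its cells, unless its leading genes went against the name, so the names are rebuilt here and are not the authors'. Log2 ratios had 0.5 added to each count. Intervals were exact Poisson for levels, Clopper-Pearson for shares and conditional binomial for ratios. Likeness used log2(CPM + 10).

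The text names all members, up to 4 genes per list at least 1.5-fold apart with at least 30 UMIs in a library, the 2 per list with most UMIs, and a selection of the 3 most alike and the 5 companion genes per member. A gene that this rule selects is not reported here. The members and lists were chosen with earlier results of these data known. On simulated counts for 13917 genes with 200 changed, median recovered log2 ratios were 0.99 for 2-fold and 1.99 for 4-fold changes, and the true ratio lay within the interval for 95.6% of genes. Simulated counts were Poisson, so UMIs held by few cells are not covered. Alternatives covered scaling, cell weighting, top cells, cell filter, cells compared, thinning depth, clustering and the count minimum.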

Additional observations from a re-analysis of the deposited data

Results flagged for a closer look

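Spp1 and Ltb were also found in the cluster of other cells that was left out of the comparisons, which is data outside the main measurement. In its 28 parous cells Spp1 was at 548 CPM (445 to 667), from 98 UMIs in 3 cells. One of these cells held 88 UMIs together with 46 of Epcam, 397 of Csn3 and 285 of Csn1s1, and had no UMI of Cd3e or Lyz2. The 9 virgin cells of the cluster had no Spp1 UMI. Ltb was at 235 CPM (169 to 317) in the parous cells of this cluster, from 42 UMIs in 15 of 28 cells, and at 90.6 CPM (54.6 to 142) in the 9 virgin cells. Cd3e was detected in 67.6% of the cells of this cluster.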

How the results depend on the processing

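Each group was 1 library, so all values rest on 1 cell preparation per group, and depth limits the rare members most: with 9 to 16 parous UMIs, Csf2 and Spp1 give no share that can be ordered by state. No paired analysis was possible because each group had 1 library. The log2 ratio of every member stayed below 0 in all alternatives that were run (12 each, 11 for Csf2, which gave no value without the top 1% of cells). The ranges were -0.69 to -0.17 for Ifng, -0.24 to -0.05 for Tnf, -0.66 to -0.22 for Lta, -0.41 to -0.13 for Ltb, -0.83 to -0.07 for Il2, -1.73 to -1.01 for Csf2 and -5.14 to -0.91 for Spp1. Of the main results, 109 values moved by no more than the counting error or 1.5 times, and 17 moved by more. Of the other results, 38 values stayed within these limits and 16 moved by more. Shares of UMIs in the top 1% of cells after thinning were among the latter. Median-of-ratios scaling gave -0.17 for Ifng and -0.20 for Ltb. Giving each state the same weight in both libraries gave -0.41 for Ltb, -0.83 for Il2 and -2.61 for Spp1. Outside the naive or central memory-like cells, chosen after seeing the data, the values were -0.69 for Ifng, -0.13 for Ltb and -0.60 for Il2, and the ratios of shares 0.640 for Ifng and 0.956 for Ltb. Outside the cycling cells, also chosen after seeing the data, they were -0.38 for Ltb and -1.40 for Spp1. Spp1 was at -2.42 by the mean CPM per cell, -2.90 without the top 1% of cells, -1.03 with no cell filter and -0.91 with every kept cell, and the last 2 settings include the Csn3-positive cell with 88 Spp1 UMIs. The Tnf ratio of shares was 0.637 without thinning, where virgin cells are deeper. At Leiden resolution 0.5, 8 of 9 states had the lower Ltb level in the parous library, and 11 of 11 at resolution 1.2.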

Other observations

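The virgin cells with Spp1 were chosen here after their values were seen. All 30 had UMIs of Cd3e, Cd8a and Cd8b1, and none had a UMI of the mammary epithelial markers. The macrophage markers gave 9 UMIs over the 30 cells, 13.6 CPM, against 8.75 CPM in the other CD8 T cells without Spp1. The dendritic cell markers gave 35 UMIs, 53.1 CPM, against 18.2 CPM in those other cells and 49.9 CPM in the cycling cells without Spp1. Xcl1 was found in 24 and Tnfrsf9, the activation receptor 4-1BB, also in 24 of the 30 cells. In the virgin cycling cells without Spp1 the shares were 37.6% and 36.8%, and in those other cells 26.0% and 11.5%. These shares were taken without thinning. Median depth was 18325.5 UMIs in the 30 cells, 17612 in the cycling cells without Spp1 and 6832 in those other cells. Many of them used the same T cell receptor beta segment. Of 21 cycling cells with Spp1 and an assigned segment, 14 used Trbv31, or 66.7% (43.0% to 85.4%). Among cycling cells without Spp1 it was 40 of 115, or 34.8% (26.1% to 44.2%), and these intervals overlapped. The other cells had 6.08%, so the cycling cells without Spp1 also had a higher share than they did. A cell's segment was assigned with at least 2 UMIs of it.

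The virgin cell with most Ifng UMIs was also the one with most Lta UMIs. It lay in the Ly49 and Helios-like cluster and had 36808 UMIs and 5676 genes, with 68 UMIs of Ifng, 25 of Lta, 10 of Csf2, 97 of Xcl1 and 16 of Il2ra, but 1 of Cd8b1 and none of Il2. The parous cell with most Ifng UMIs had 18 among 4513 UMIs. Among the 25 virgin cells with most Ifng, 8 were cycling and 6 were circulating effector-like, with a median of 14569 UMIs per cell, whereas among the 29 parous cells 7 lay in cluster 2 and 1 was cycling, with a median of 4587.

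The cell filter removed 1908 parous barcodes, which held 251 Ifng UMIs, a level of 206 CPM (181 to 233) against 149 CPM in the compared cells, and 466 Ltb UMIs, a level of 383 CPM (349 to 419) against 461 CPM.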
